A study of Mus musculus with 6 samples.

Results

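The genes described here are the SLAM family receptors and SAP, the adaptor protein that several of them share. They were taken from a two-colour Agilent microarray by name, as every non-control probe whose gene name in the scanner files was Slamf1, Slamf6, Slamf7, Slamf8, Slamf9, Ly9, Cd244, Cd84, Cd48 or Sh2d1a. This gave 17 probes for 10 genes, out of 41174 non-control probes on the array. All 17 probes and all 10 genes passed the filter on dim signal, and none of their spots was saturated. To pass, a probe had to be well above background on 3 or more arrays for either RNA, VIP-treated or untreated.

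The study asked how vasoactive intestinal peptide (VIP) alters the transcripts of CD4 T cells taken from C57BL/6J mouse spleens. VIP is a neuropeptide released by nerve endings in lymphoid tissue and by some immune cells, whose receptors raise cAMP. Cells of both groups, VIP-treated and untreated, had been activated with PMA, a phorbol ester that turns on protein kinase C, and ionomycin, a calcium ionophore, so no resting cells enter the comparison. Each of 6 arrays, 1 per biological replicate, carried VIP-treated and untreated RNA in different dyes, with VIP in Cy5 on replicates 1, 3 and 5 and in Cy3 on replicates 2, 4 and 6. Neither the doses nor the length of the VIP exposure is stated in the sources used here. Each sample, per the labels, was a pool of 5 to 10 spleens of male and female mice aged 6 to 32 weeks, and CD4 cells were taken with anti-CD4 magnetic beads, so a sample is an average over animals and over all CD4 subsets.

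The SLAM family consists of immunoglobulin-like surface receptors of leukocytes. Most of its members bind their own kind on a neighbouring cell, while CD244 binds CD48. Tyrosine motifs in the tails of several members recruit SAP, a small protein made of little more than an SH2 domain, which brings in the kinase Fyn. In mice SAP is needed for the long contacts between T and B cells that sustain germinal centres and for the development of NKT cells. In humans its loss causes X-linked lymphoproliferative disease.

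Slamf6 was the only one of the 10 genes called different between VIP-treated and untreated cells, and that call came from 1 of its 2 probes. These probes are shown first because the call depends on which of them stands for the gene. A further probe is shown beside them. The files name it by a cDNA, AK089750, but their description of that cDNA gives its product as the lymphocyte antigen Ly108, written out in full, and Ly108 is a RefSeq synonym of Slamf6. It was the only probe of 18 whose description named one of the 10 genes without carrying that gene's name. It lies outside the rule that chose the genes and was added after its values were seen. Each is a 60-base oligonucleotide on the plus strand of chromosome 1, with the positions that the files give on mm9.
Slamf6 A_52_P45563, chr1:173866817-173868145: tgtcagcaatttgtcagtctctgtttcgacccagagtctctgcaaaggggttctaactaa
Slamf6 A_52_P507578, chr1:173873620-173873679: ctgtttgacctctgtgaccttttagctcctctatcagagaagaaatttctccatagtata
AK089750 A_52_P6390, chr1:173848171-173848230: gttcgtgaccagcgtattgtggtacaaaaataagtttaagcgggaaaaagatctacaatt
The 60 bases of A_52_P45563 are spread over 1329 bases of the genome, whereas A_52_P507578 and A_52_P6390 each match 60 bases without a gap. The files do not say which exons the probes match, and this was not analysed here.

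Replicates 5 and 6 stood apart from the other arrays. On replicate 5 sex-linked transcripts differed between the channels, with a log2 ratio of VIP over untreated of -3.29 for Xist, 4.08 for Ddx3y and 4.18 for Eif2s3y. On the other arrays the ratios of these transcripts lay between -0.34 and 0.46. Replicate 5 also had 13.5% of its spots marked as outliers, against 0.574% to 4.44% on the other arrays, and such spots were left out. The brightest probes of Slamf1, Slamf6 and Cd84 were marked on that array only, so these genes rest on 5 arrays. On replicate 6 dim probes read higher than elsewhere, with 99.0% of spots well above background for VIP-treated RNA and 99.9% for untreated RNA. Between 56.9% and 88.5% were well above background in the channels of the other arrays. Intensities are given on a linear scale after background correction and normalization within the array. Each log2 ratio is VIP over untreated. The number of arrays limits the precision, and p-values rest on the scatter among 6 arrays, or 5 for genes with a marked spot. In limma the variance of a gene is also drawn toward that of all genes tested. This adds 6.2 degrees of freedom to the 4 of a gene with 6 arrays, or the 3 of a gene with 5, such as Slamf6.

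Across all genes, 363 of 22731 were called higher with VIP (1.6%) and 119 were called lower (0.524%), at a limma adjusted p under 0.05. Among the 10 genes here, 1 was called lower and 0 were called higher. Their log2 ratios were above 0 for 5 genes and below 0 for 5. The median was 0.016, beside -0.00036 over all genes tested. Among the probes, 1 of 17 was called lower, beside 0.538% of the 33056 probes tested, and 0 were called higher, beside 1.62%.

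**Figure D1:**
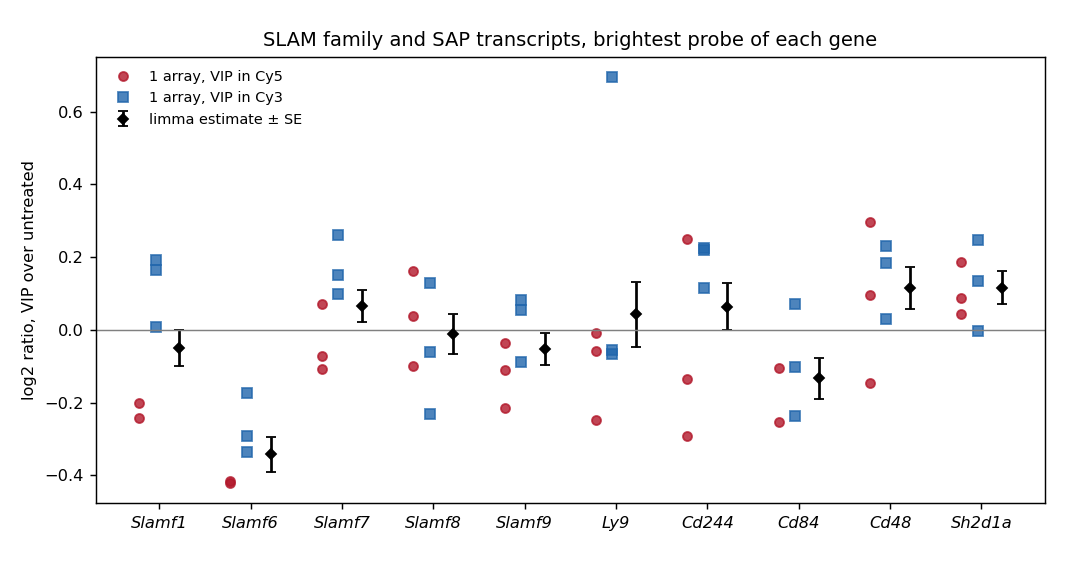
Log2 ratio of VIP over untreated (vertical axis) for the brightest probe of each of the 10 genes. Red circles are single arrays with VIP in Cy5, blue squares single arrays with VIP in Cy3, and black diamonds the limma estimates with their standard errors. All 5 Slamf6 points lie below 0, and each of the 9 other genes has points on both sides of 0 on single arrays.

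Slamf6, also called Ly108, is a receptor of T, B and NK cells that binds itself and signals through SAP. With A_52_P45563, normalized intensity on replicates 1, 2, 3, 4 and 6 was 2290, 2850, 3258, 2011 and 2465 in VIP-treated cells, against 3054, 3597, 4364, 2267 and 3020 in untreated cells. VIP-treated cells read lower than the untreated cells of the same array on all 5 arrays, although the groups' ranges overlapped across arrays. The log2 ratios on these arrays were -0.42, -0.34, -0.42, -0.17 and -0.29. The estimate was -0.34 ± 0.048 (SE, n = 5 arrays, limma adjusted p = 0.0063), a 0.788-fold level with a 95% interval of -0.45 to -0.24 on the log2 scale. By p-value Slamf6 ranked 161 among all genes tested.

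The spot of A_52_P45563 on replicate 5 was marked as not uniform in the red channel. It read 4187 in VIP-treated cells and 5081 in untreated cells, a log2 ratio of -0.28. With marked spots kept, the estimate was -0.32 ± 0.044 over 6 arrays (limma adjusted p = 0.0064). When replicate 5 was left out of the whole fit, the same 5 Slamf6 values remained, so the estimate could not change. It was -0.34 ± 0.047 (limma adjusted p = 0.0010), and the adjusted p moved only through the other genes of the fit. The arrays lay on 3 slides, each with 1 array of either dye orientation. The mean log2 ratio was -0.38 on the first slide, -0.30 on the second and -0.29 on the third, where 1 array had a value. With the slide as a block in place of the dye term, the estimate was -0.34 ± 0.057 (limma adjusted p = 0.024). In that fit the lone array of the third slide carries no information on VIP, so the estimate rests on the first and second slides.

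The second Slamf6 probe, A_52_P507578, was not called. On replicates 1 to 6 it read 2599, 2213, 2757, 1577, 4812 and 2070 in VIP-treated cells, against 2500, 2963, 2449, 1818, 4469 and 2397 in untreated cells. Signal was higher with VIP on the 3 arrays with VIP in Cy5 and lower on the 3 arrays with VIP in Cy3, so the direction followed the dye. The mean log2 ratio was 0.11 with VIP in Cy5 and -0.28 with VIP in Cy3. The estimate that balances the dyes was -0.08 ± 0.045 (SE, n = 6 arrays, limma adjusted p = 0.49). Its dye effect, red over green, was 0.20, beside -0.08 for A_52_P45563. Once the dye effect estimated from the same arrays was subtracted, the ratio was below 0 on 6 of 6 arrays, from -0.23 on replicate 2 to -0.01 on replicate 4. The subtraction gives both dye orientations the same mean, so these signs are no separate evidence of a fall.

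The difference between both Slamf6 probes within the arrays was -0.26 ± 0.058 (n = 5 arrays). In a limma fit of the same difference for 7096 genes with at least 2 tested probes, its unadjusted p was 0.0020 and its adjusted p 0.21, and 0.0282% of the genes were called. With marked spots kept the difference was -0.24 ± 0.053 over 6 arrays (limma adjusted p = 0.23). The difference between the probes did not pass the threshold. A_52_P45563 stands for the gene because it was the brighter of the pair by a small margin, with a mean log2 intensity of 11.47 against 11.33. With the mean of both probes the log2 ratio of Slamf6 was -0.17 ± 0.047, which was not called (limma adjusted p = 0.13).

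The AK089750 probe also read lower with VIP on most arrays. On replicates 1 to 6 it gave 5156, 5673, 5683, 1623, 4389 and 3435 in VIP-treated cells, against 6143, 6785, 6639, 1615, 6667 and 3443 in untreated cells. VIP-treated cells were lower on replicates 1, 2, 3 and 5, and both groups were nearly level on replicates 4 and 6. The log2 ratios ran from -0.60 on replicate 5 to 0.01 on replicate 4. The estimate was -0.22 ± 0.060 (SE, n = 6 arrays) and did not pass the threshold (limma adjusted p = 0.11). Without replicate 5, which held the lowest ratio, the estimate was -0.16 ± 0.052 (limma adjusted p = 0.13). Over 22 other processing settings the estimate lay between -0.26 and -0.16, with a limma adjusted p of at least 0.065, and it was called in 0 of them.

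**Figure D2:**
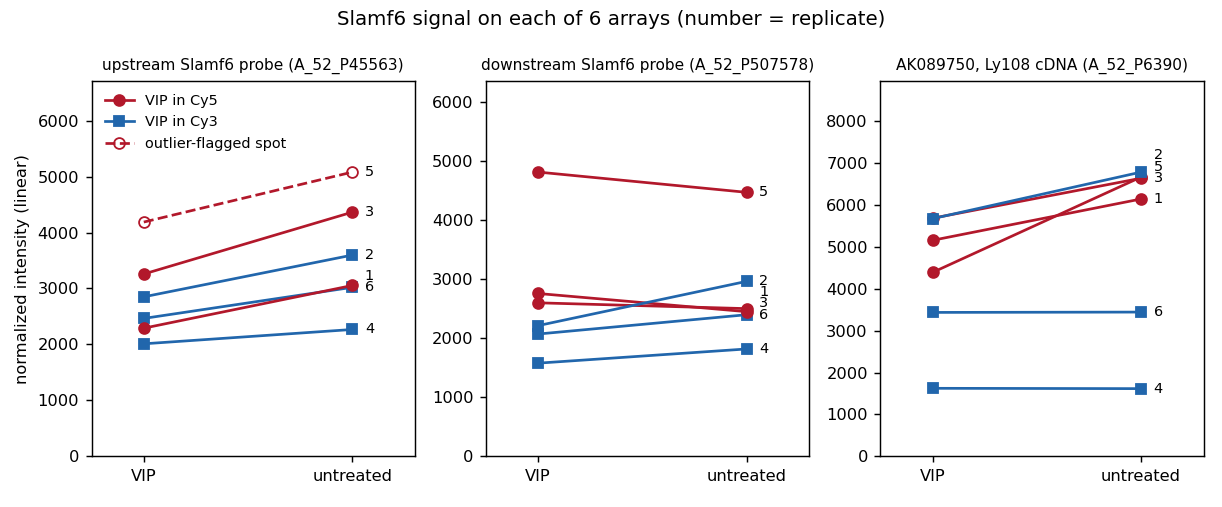
Normalized intensity (linear vertical axis, starting at 0, scaled separately in each panel) of the probes A_52_P45563, A_52_P507578 and A_52_P6390 in VIP-treated and untreated cells. Each line joins both channels of 1 array, red with VIP in Cy5 and blue with VIP in Cy3, and the dashed line is the marked spot of replicate 5. In the left panel all 6 lines run lower on the VIP side, in the middle panel the red and blue lines slope in opposite directions, and in the right panel 4 lines run lower on the VIP side while replicates 4 and 6 are nearly flat.

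Slamf1, known as SLAM, binds itself and uses SAP in mouse T cells for IL-4 production. With its brighter probe, A_52_P550173, signal on replicates 1, 2, 3, 4 and 6 was 30176, 32473, 34828, 20979 and 32742 in VIP-treated cells, against 35731, 32320, 40042, 18366 and 29204 in untreated cells. The groups overlapped, with VIP lower on the 2 arrays that had it in Cy5 and higher on the 3 that had it in Cy3. The estimate was -0.05 ± 0.049 (n = 5 arrays, limma adjusted p = 0.76), with a 95% interval of -0.16 to 0.06. The other Slamf1 probe, A_52_P158959, gave -0.03 ± 0.039 with the dye pattern reversed, at a mean of 0.10 with VIP in Cy5 and -0.16 with VIP in Cy3.

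Ly9, or CD229, is a receptor of T and B cells that binds itself. Its probe read 2218, 1760, 2351, 1052, 2675 and 2792 on replicates 1 to 6 in VIP-treated cells, against 2309, 1831, 2367, 650.1, 3178 and 2923 in untreated cells. Ly9 was lower with VIP on 5 of 6 arrays and higher on replicate 4, where the log2 ratio was 0.69. The estimate was 0.04 ± 0.090 (limma adjusted p = 0.91) and became -0.08 ± 0.052 without replicate 4 (limma adjusted p = 0.65). Ly9 had the largest standard error of the 10 genes.

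Cd84, which binds itself and supports adhesion of T cells to B cells in mice, came next to Slamf6 among the lower values. On replicates 1, 2, 3, 4 and 6 it read 2012, 2077, 1808, 1436 and 2741 in VIP-treated cells, against 2162, 2231, 2155, 1691 and 2607 in untreated cells. It was lower with VIP on 4 of 5 arrays, with overlapping groups. The estimate was -0.13 ± 0.057 (limma adjusted p = 0.36), with a 95% interval of -0.26 to -0.01. The marked spot on replicate 5 read 4618 in VIP-treated cells and 4203 in untreated cells, a log2 ratio of 0.14. With marked spots kept, the estimate was -0.08 ± 0.060 over 6 arrays (limma adjusted p = 0.68).

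Slamf7, also called CRACC, signals through the SAP relative EAT-2 in NK cells. Its brighter probe, A_52_P429609, read 6642, 7688, 10587, 3039, 13013 and 6230 on replicates 1 to 6 in VIP-treated cells, against 6326, 7182, 11133, 2539, 14034 and 5610 in untreated cells. It was higher with VIP on 4 arrays and lower on replicates 3 and 5. The estimate was 0.07 ± 0.044 (limma adjusted p = 0.60), with a 95% interval of -0.03 to 0.16. The other probe, A_52_P261262, gave 0.02 ± 0.054 and was higher with VIP on 3 of 6 arrays.

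Cd48 and Cd244 form a ligand and receptor pair: CD48 is anchored in the membrane by a lipid and has no tail, and CD244, or 2B4, is its receptor on NK cells and some CD8 T cells. The brighter Cd48 probe, A_51_P362029, read 2369, 2362, 2838, 1152, 1929 and 2809 on replicates 1 to 6 in VIP-treated cells, against 1931, 2315, 2658, 982.2, 2134 and 2471 in untreated cells. It was higher with VIP on 5 of 6 arrays and lower on replicate 5. The estimate was 0.11 ± 0.058 (limma adjusted p = 0.46) and lay between 0.06 without replicate 1 (limma adjusted p = 0.76) and 0.17 without replicate 5 (limma adjusted p = 0.10). The dimmer Cd48 probe, A_52_P460230, gave 0.06 ± 0.048 and was higher with VIP on 5 of 6 arrays.

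Cd244 signal was low. The brightest of its 3 probes, A_51_P205209, read between 138 and 309 in VIP-treated cells, with a median of 193, and between 118 and 285 in untreated cells, with a median of 224. The groups overlapped, and the ratio was higher with VIP on 4 arrays and lower on replicates 3 and 5. The estimate was 0.06 ± 0.064 (limma adjusted p = 0.76). The other Cd244 probes, A_52_P26766 and A_52_P541344, were well above background on 3 arrays with VIP and on 2 without it, and gave -0.01 ± 0.049 and 0.07 ± 0.041. Both thus passed the filter on dim signal only through the VIP-treated RNA. A_52_P541344 was higher with VIP on 6 of 6 arrays, by 0.00 to 0.16 on the log2 scale, and was not called (limma adjusted p = 0.56). Because the filter admitted this dim probe through the VIP-treated RNA, that direction is no evidence of a rise.

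Slamf8 and Slamf9 have short tails without the tyrosine motifs that bind SAP, and in mice Slamf8 is known from macrophages. Slamf8 read between 182 and 293 in VIP-treated cells and between 167 and 336 in untreated cells on replicates 1 to 5. On replicate 6 it read 800 in VIP-treated cells and 834 in untreated cells. Slamf9 read between 102 and 183 in VIP-treated cells and between 106 and 213 in untreated cells on replicates 1 to 5, and 527 and 561 on replicate 6. The higher readings on replicate 6 went with the higher share of spots above background there, in both channels alike. The estimate was -0.01 ± 0.055 for Slamf8 (limma adjusted p = 0.97) and -0.05 ± 0.044 for Slamf9 (limma adjusted p = 0.70). With an offset of 0 in place of 50 in the background correction, they were -0.0053 (limma adjusted p = 0.99) for Slamf8 and -0.07 (limma adjusted p = 0.71) for Slamf9.

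Sh2d1a encodes SAP and lies on the X chromosome. Its brighter probe, A_51_P172514, read 5286, 5066, 6325, 2412, 9060 and 5037 on replicates 1 to 6 in VIP-treated cells, against 5132, 5074, 5554, 2032, 8533 and 4588 in untreated cells. It was higher with VIP on 5 of 6 arrays and level on replicate 2, with a log2 ratio of -0.0021 there. The estimate was 0.12 ± 0.046 (SE, n = 6 arrays), with a 95% interval of 0.01 to 0.22, and did not pass the threshold (limma adjusted p = 0.31). On replicate 5, where the channels differed in sex-linked transcripts, Sh2d1a had a log2 ratio of 0.09, within its range on the other arrays. The dimmer Sh2d1a probe, A_52_P641747, was above background on 4 of 6 arrays in either channel and gave -0.01 ± 0.043.

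In the order of their log2 ratios the 10 genes ran from Slamf6 through Cd84, Slamf9, Slamf1, Slamf8, Ly9, Cd244, Slamf7 and Cd48 to Sh2d1a. Slamf6 was compared with each other gene within the arrays with an exact permutation test that flips the sign of the difference on each array (two-sided, 9 pairs in all). The mean difference lay between -0.49 for Cd48 and -0.20 for Cd84. Slamf6 had the lower ratio on 5 of 5 arrays for 8 genes and on 4 of 5 for Cd84. With 5 arrays the smallest p this test can give is 0.0625, which those 8 pairs reached (0.0703 adjusted over the pairs), and 0 of 9 pairs passed. With the marked spot of replicate 5 kept, as a setting chosen after the data were seen, 7 of 9 pairs passed over 6 arrays at an exact p of 0.031 (0.040 adjusted over the pairs). The pairs with Cd244 and Cd84 then had an exact p of 0.0625, with Slamf6 lower on 5 of 6 arrays. Slamf6 was set against the others because it was the called gene and the lowest of the 10, and the adjustment over 9 pairs does not cover that choice, so these p-values describe the pairs and do not show that Slamf6 differs from the rest of the family. The order of the 9 other genes among themselves was not tested.

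The number of family genes that read higher with VIP varied from array to array. It was 5 of 10 on replicates 1 and 2, 3 of 10 on replicate 3, 8 of 10 on replicate 4, 1 of 7 on replicate 5 and 6 of 10 on replicate 6. The median log2 ratio of the genes on replicates 1 to 6 was 0.0028, 0.0024, -0.10, 0.21, -0.11 and 0.09. Over all genes, between 46.5% and 53.1% read higher with VIP on each array, and the medians lay between -0.01 and 0.01. No test was made of these counts. With the brightest probe of each gene, the dye effect was below 0 for 9 of the 10 genes, beside 48.4% of all genes tested. It differed between probes of a gene. The other probes gave 0.20 for Slamf6, 0.13 for Slamf1, -0.17 for Slamf7, -0.05 for Cd48, 0.02 for Sh2d1a, and 0.06 and -0.01 for Cd244. What these array and dye patterns contribute to the ratios of single genes was not tested beyond the dye term of the fit.

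The nearest patterns to that of Slamf6 were those of Ubxn2a, Fkbp2, Tnfaip8l1, Malt1 and Sos2. They are the 5 genes with the smallest Euclidean distance to its log2 ratios over the 5 arrays with a Slamf6 value, among 21497 genes, with distances of 0.153 to 0.215. Malt1 encodes a protease that acts downstream of the T cell receptor, and Sos2 an exchange factor for Ras. Ubxn2a had a log2 ratio of -0.36 ± 0.040, with single arrays between -0.43 and -0.27. Malt1 had -0.27 ± 0.044, with single arrays between -0.37 and -0.21. The distance picks genes of a similar level of change, so their own values are a description.

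Except for Sh2d1a, the genes lie in a single run on chromosome 1. Their probes span chr1:173507474-174512126 on mm9, a stretch of 1005 kb that also holds other genes. Within 500 kb of either end of this run lay 63 entries under other names, of which 58 were tested. They include AK089750, described in the files as Ly108, and further entries without a RefSeq symbol. Of the 58 tested entries, 1 was called higher, beside 1.6% of all genes, and 0 were called lower, beside 0.524%. Their median log2 ratio was -0.01. The gene called was BC013561, a cDNA without a RefSeq symbol, whose probe lies 337 kb from A_52_P45563. Its log2 ratio was 0.48 ± 0.047 (limma adjusted p = 0.00065), and it was higher with VIP on 6 of 6 arrays, by 0.37 to 0.62. Within the same run of probes Slamf6 was called lower, by 1 of its 2 probes, and BC013561 was called higher. No other tested gene of the run or its flanks passed. The call of BC013561 was kept in 19 of 22 other settings and that of Slamf6 in 12. The neighbours with the next smallest p were AK089750, described above, and Alyref2, with a log2 ratio of -0.15 ± 0.048 (limma adjusted p = 0.20).

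**Figure D3:**
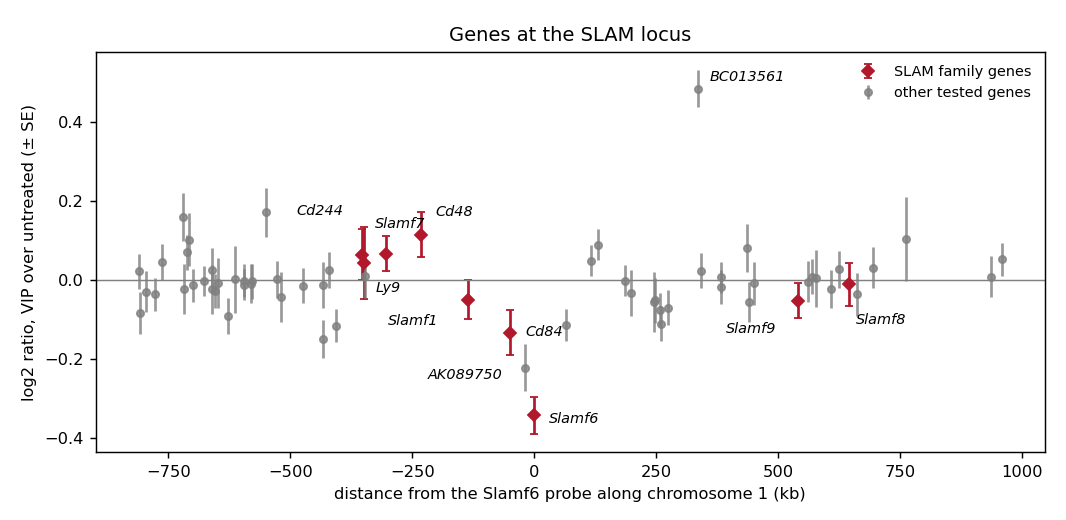
Log2 ratio of VIP over untreated with its standard error (vertical axis) against distance from the Slamf6 probe A_52_P45563 in kb (horizontal axis) for genes tested on this stretch of chromosome 1. Red diamonds are SLAM family genes and grey circles entries under other names, AK089750 among them. Slamf6 is the lowest point at -0.34, AK089750 lies beside it at -0.22, and BC013561 is the highest at 0.48.

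The proteins that act with SAP and the SLAM receptors were followed as a list of 22 genes, of which 21 were tested and Sh2d1b2 was not matched to a probe. Of these, 1 was called higher, beside 1.6% of all genes, and 0 were called lower, beside 0.524%. The median log2 ratio was -0.01. The gene called was Cd2, which encodes an adhesion receptor of T cells that binds CD48 in mice. Its log2 ratios on replicates 1 to 6 were 0.19, 0.24, 0.15, 0.26, 0.14 and 0.31, all above 0. The estimate was 0.22 ± 0.038, a 1.16-fold level (SE, n = 6 arrays, limma adjusted p = 0.016). The call was kept in 11 of 22 other settings. It was lost when any 1 of replicates 1, 2, 3, 4 and 6 was left out, with estimates of 0.21 to 0.22 and a limma adjusted p between 0.060 and 0.094. In these fits fewer genes of the whole array were called higher too, 0.779% to 1.05% beside 1.6% as reported.

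Bcl10, the partner of MALT1, had a log2 ratio of -0.18 ± 0.049 (n = 5 arrays, limma adjusted p = 0.12) and was lower with VIP on 5 of 5 arrays. Vav1, an exchange factor that Fyn and SAP engage in T cells, had -0.14 ± 0.039 (limma adjusted p = 0.12) and was lower on 5 of 6 arrays. Both missed the threshold. The other 18 tested genes of the list, among them Fyn, Lck, Ptpn6, Inpp5d and the EAT-2 gene Sh2d1b1, were not called either, and the estimates of all 21 lay between -0.18 and 0.22.

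Genes of T follicular helper and NKT cells, whose development needs SAP in mice, made a list of 10, of which 9 were tested and Zbtb16 was not matched to a probe. None was called in limma (0 of 9 in either direction), beside 1.6% of all genes called higher and 0.524% called lower. Their median log2 ratio was 0.07, and 6 of 9 estimates were above 0. Cxcr5, the chemokine receptor that takes T cells into follicles, was higher with VIP on 6 of 6 arrays, by 0.04 to 0.25, with an estimate of 0.18 ± 0.043 (limma adjusted p = 0.073). Without replicate 5 its estimate was 0.21 ± 0.046, which was called (limma adjusted p = 0.024). More genes of the whole array were called higher in that fit too, 569 of 22546 (2.52%) beside 1.6% as reported. Icos, a costimulatory receptor of follicular helper cells, had 0.16 ± 0.051 (limma adjusted p = 0.18) and was higher on 5 of 6 arrays. Maf, a transcription factor of these cells, had 0.11 ± 0.057 (limma adjusted p = 0.49), and 0.04 ± 0.046 without replicate 5 (limma adjusted p = 0.75). The dimmer Maf probes gave -0.04 ± 0.044 and -0.01 ± 0.045, and the dimmer Icos probe gave 0.18 ± 0.062.

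**Figure D4:**
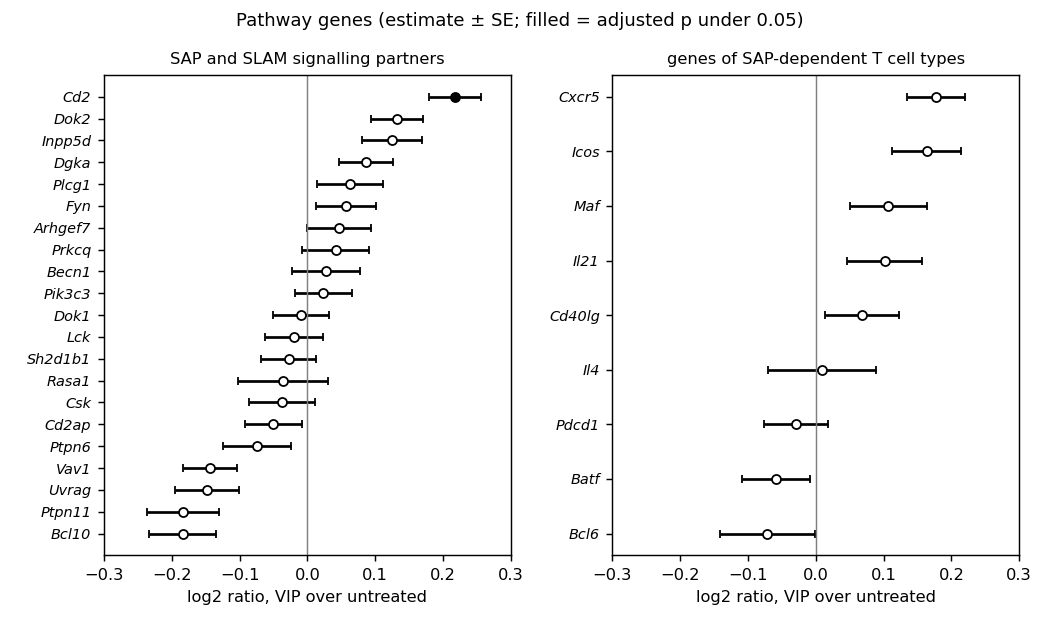
Log2 ratio of VIP over untreated with its standard error (horizontal axis) for 21 tested partners of SAP and the SLAM receptors (left) and 9 tested genes of SAP-dependent T cell types (right). The filled circle, Cd2 at 0.22, marks a limma adjusted p under 0.05, and the open circles, Cxcr5 at 0.18 among them, lie at or above it.

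The cell type label was checked against marker genes, since several SLAM receptors are shared with B cells, NK cells and macrophages. All 11 T cell markers were well above background in every channel, and 1 of them was called higher, Cd28, with a log2 ratio of 0.28. Beside these counts of markers stand 1.6% of all genes called higher and 0.524% called lower. Summed intensities cover the markers of a list without a marked spot on any array. The sum of 9 T cell markers was 334072 to 514442 in VIP-treated cells and 313197 to 515529 in untreated cells. The sum of 9 B cell markers was 2728 to 5044 with VIP and 2265 to 5553 without it, and 0 of 10 were called. The sum of 7 NK cell markers was 765 to 2913 with VIP and 690 to 2814 without it, and 0 of 7 were called. The sum of 6 monocyte and macrophage markers was 9021 to 34273 with VIP and 7427 to 33924 without it. Of 10 such markers, 1 was called higher, Cd14, with a log2 ratio of 0.57 over 5 arrays, and its marked spot keeps it out of that sum. The sum of 2 CD8 T cell markers was 2744 to 7873 with VIP and 2333 to 8269 without it. That of 4 plasma cell markers was 4906 to 12425 and 4570 to 11552.5, and that of 5 dendritic cell markers 4284 to 7600 and 3977 to 8596. For 3 platelet markers it was 239 to 1356 and 245 to 1356. In each of these lists 0 were called. Well above background in every channel were 7 of 10 B cell, 3 of 7 NK cell and 7 of 10 monocyte and macrophage markers. The same held for 1 of 2 CD8 T cell, 4 of 5 plasma cell, 5 of 8 dendritic cell and 0 of 4 platelet markers. None of the genes in these lists was called lower (0 in limma), and the part of other cell types in the Slamf6 value was not tested. In bulk RNA, fewer cells carrying Slamf6 and less Slamf6 RNA per cell cannot be told apart.

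The Slamf6 value was followed over 22 other processing settings. Its sign was negative in all of them, and it kept its call in 12. Fits without replicate 5 are among those 12 and hold the same Slamf6 values as the reported fit, so they are no separate check. The call was lost with the authors' deposited log ratios and the Agilent log ratios, with a median in place of a loess normalization, and without replicate 1 (limma adjusted p = 0.068) or replicate 3 (limma adjusted p = 0.060), among others. In the settings just named, 0% to 0.204% of all genes were called lower, beside 0.524% as reported. In most of the 22 settings the estimate stayed between -0.37 and -0.32. It was -0.17 with the mean of both probes and -0.08 wherever A_52_P507578 stood for the gene. The 9 other genes were called in 0 of their settings.

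**Figure D5:**
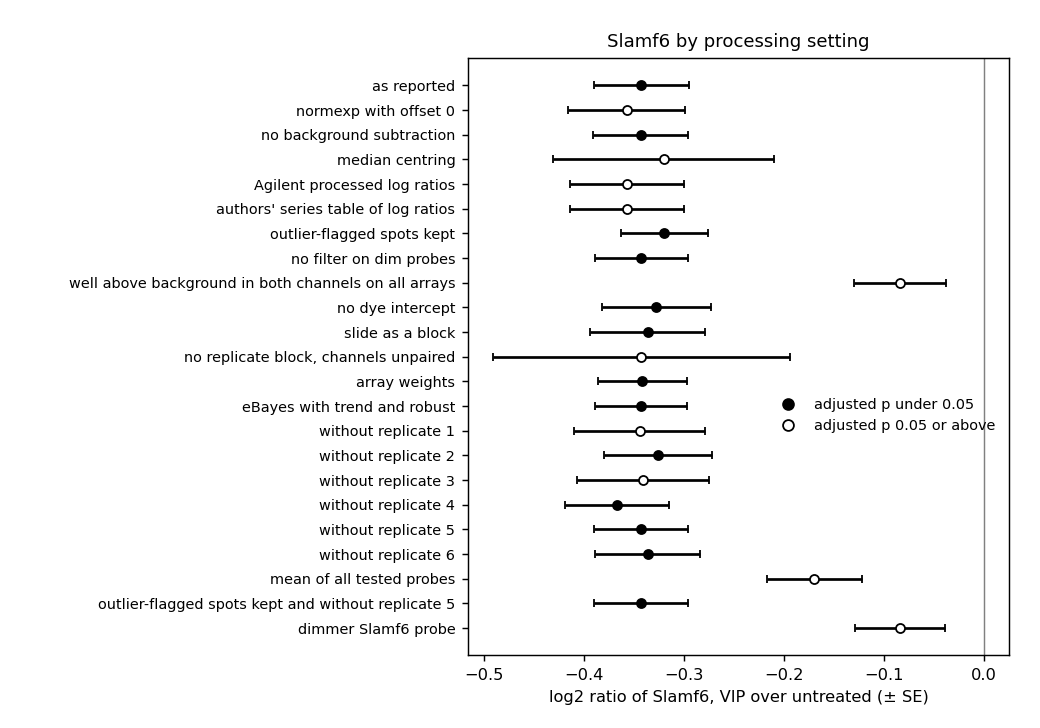
Log2 ratio of Slamf6, VIP over untreated, with its standard error (horizontal axis) as reported and under 22 other settings (rows). Filled circles have a limma adjusted p under 0.05 and open circles do not; every point lies below 0, and those that use or include the probe A_52_P507578 lie closest to it.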

How the data were processed

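The members, lists and tests were chosen with earlier results of these data known. Per the file headers, Agilent Feature Extraction 9.5.1.1 was used to read the spots. The deposited scanner files give a mean intensity and a background intensity per channel, with quality flags of 0 or 1. The deposited log10 ratios of processed intensities, in the scanner files and in the authors' series table (the same values with VIP always on top, to within 4.466e-06), were alternatives. Per the labels' protocols, labelling started from 250 ng of total RNA.

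Mean intensity was corrected with normexp (offset 50) and normalized by loess within each array in limma 3.58.1 under R 4.3.3. The 1639 control spots and the spots with outlier flags were left out, and replicate spots were averaged per probe. Current symbols came from a RefSeq table (assembly GRCm38.p6, no coordinates used) for 26788 spots by accession and 1810 by synonym; the remaining 14781 of 43379 keep the scanner file's name. A gene was represented by its brightest tested probe. The log2 ratio within an array was modelled by a VIP effect plus a dye intercept (4 residual degrees of freedom with 6 arrays) and adjusted by Benjamini-Hochberg over all genes or probes. The fit was tested on simulated data.

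Each array holds both RNAs of a replicate, so the array is the pairing the labels give. On replicate 5 sex-linked transcripts differed between the channels, so its pair may not come from the same pool of mice. All members were named, and of each other list the called genes and at most the 3 with the smallest p. AK089750 in its link to Slamf6 was chosen after its values were seen. One gene of the planned list of SAP partners is not reported here and was left out of that list's counts.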

Additional observations from a re-analysis of the deposited data

Results flagged for a closer look

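Of 17 probes tested for an array far from the others, 3 had one. Chance flags about 1 in 20 such groups if values are normal and groups independent. The probes share arrays, and their ratios were not adjusted for the dye here. The share of all tested probes with such an array is not given, so the count shows no excess in this family. The Ly9 probe A_51_P497171 had a log2 ratio of 0.69 on replicate 4, while the other 5 arrays lay between -0.25 and -0.01. The Cd244 probe A_52_P26766, which was well above background on 3 arrays with VIP and 2 without it, had -0.25 on replicate 4, where the others lay between -0.00 and 0.13. The Cd48 probe A_52_P460230 had -0.17 on replicate 3, where the others lay between 0.09 and 0.15. The cause was not tested.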

How the results depend on the processing

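Each result was recomputed under 20 planned settings and 2 added after the data were seen, with fewer for probes and for pairs of genes. The 1 called gene of the family (Slamf6) became 0 in 10 settings. Fewer genes of the whole array were called lower in some of these too: 9 of 22731 with offset 0, 8 with median centring and 0 with the Agilent ratios and the authors' table, against 119 as reported. The settings were normexp with offset 0 (log2 ratio -0.36, limma adjusted p = 0.089), median centring (-0.32, 0.44), the Agilent ratios and the authors' table (-0.36, 0.15), probes above background on all arrays (-0.08, 0.40), the mean of the probes (-0.17, 0.13) and the dimmer probe (-0.08, 0.49). The others were the fits without replicate 1 (-0.34, 0.068) and without replicate 3 (-0.34, 0.060) and the fit without pairing. Called lower were 31 of 20549 genes (0.151%) without replicate 1 and 39 of 19098 (0.204%) without replicate 3, beside 0.524% as reported. Without the pairing by array, Slamf6 had -0.34 ± 0.148 and a limma adjusted p of 0.99996, with 0 called genes in every list and 1 called among all 22319 genes. Leaving out 1 array at a time gave -0.37 to -0.33 for Slamf6 and 0 to 1 called genes for the family, the partner list and the SAP-dependent list. Called probes went to 0 in 8 of 20 settings, the partner list to 0 in 11 of 22, also with no dye intercept, and the locus neighbours to 0 in 3 of 22. Where the partner list went to 0, 0.00448% to 1.05% of all genes were called higher, beside 1.6% as reported. Where the neighbours went to 0, that share was 0.00448% to 0.0836%. The SAP-dependent list went to 1 (Cxcr5) with array weights, with a trended robust prior and without replicate 5. Of all genes, 2.12%, 1.67% and 2.52% were called higher in these fits, beside 1.6% as reported. Pairs of genes that passed went to 7 with marked spots kept. Estimates close to 0 changed sign. Slamf1 went to 0.012 with median centring and 0.026 with marked spots kept. Slamf8 went to 0.017 with the Agilent ratios and the authors' table, 0.0068 with array weights and 0.022 with marked spots kept and without replicate 5; leaving out 1 array gave -0.057 to 0.033. Leaving out 1 array gave -0.083 (without replicate 4) to 0.11 for Ly9 and -0.013 (without replicate 1) to 0.12 for Cd244. The cause of these changes was not tested, except that A_52_P45563 dropped out of the fit on all arrays through its marked spot.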
